A study of Mus musculus with 40 samples.

Results

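The BCL2 family decides at the outer membrane of the mitochondrion whether a cell enters apoptosis, and 10 genes of this family were followed in mouse embryonic fibroblasts (MEFs) treated with doxorubicin. The 10 genes were chosen by their symbols among the 24062 genes of the count table, and each of them passed the filter on low counts, as did 14883 genes in all. Bax, Bbc3 and Pmaip1, which belong to the same family and are best known as p53 targets, were set apart and are given only for comparison. RNA-Seq was performed on primary MEFs at passage 3, grown from embryos of 13.5 days post coitum on a mixed C57BL/6J-129P2OlaHsd background. The embryos were wild type (WT), heterozygous (Het) or knockout (KO) for Sall2, which codes for a transcription factor with zinc fingers. The MEFs were left untreated (control) or received 1 μM doxorubicin, a topoisomerase poison that breaks DNA, for 16 h. Control libraries came from 1 WT, 1 Het and 3 KO embryos. With doxorubicin there were usable libraries of 1 WT, 1 Het and 2 KO embryos, because the column of KO embryo 3 held the same counts as that of KO embryo 2 for all 24062 genes and was left out. Which of these 2 embryos this shared library came from is not known from the labels, and its marker levels are given below beside both controls. It is called KO embryo 2 in values given by embryo, and ranges within embryos rest on this choice unless KO embryo 3 is named. Block calls of the 10 genes that change when it is given to KO embryo 3 are printed both ways. Thus 9 of 10 libraries were analysed, 5 of control and 4 of doxorubicin. WT and Het rest on 1 embryo each, so a genotype cannot be told apart from an embryo there, and the KO line carries DNA of the 129P2 stem cells on chromosome 14 around Sall2. None of the 10 genes lies on chromosome 14.

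In this family, guardian proteins such as BCL2, BCL-XL (made from Bcl2l1) and MCL1 hold the membrane intact. Effectors such as BAK (made from Bak1), BAX and BOK form pores in it, which release cytochrome c and start the caspases. BH3-only proteins carry the death signal to the other members, either by binding guardians or by activating effectors, and they include BIM (made from Bcl2l11), BAD, BID, BIK and BMF. Fibroblasts with damaged DNA are known to raise such death signals, in part through p53, while transcripts with short lives such as that of Mcl1 depend on continued transcription.

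Libraries held between 15560728 and 24122414 counts, so that 3 counts are worth 0.124 to 0.167 CPM (counts scaled by TMM and library size). Intervals and floors below describe the error of counting reads and nothing else. The reads carried no identifiers of single molecules, so copies of a molecule count as separate reads and the intervals may be too narrow. Sall2 itself, on chromosome 14 from 52311172 to 52328762 (GRCm38), had 37.0 CPM in the WT control, 24.3 in the Het control and 19.5, 23.8 and 19.1 in the KO controls, so reads of the locus were still counted in KO and the Het control was close to KO embryo 2. The treated libraries were lower, with 9.35 CPM for the WT embryo, 8.34 for Het, 4.24 for KO embryo 1 and 3.72 for KO embryo 2. The table holds 1 value for the whole gene and does not show whether the deleted segment was read. The control libraries of the Het embryo and of KO embryo 3 stood apart from the other 3 controls. In these 2 libraries the sum of 12 interferon-stimulated genes was 2288 and 2471 CPM, against 57.9 to 77.0 CPM in the other controls. The summed level of 10 fibroblast markers was 20565 and 16572 CPM in them, against 77257 to 94364 CPM. For the 7 macrophage markers in the table, the sum was 544 and 412 CPM, against 90.5 to 154 CPM. The Het library with doxorubicin showed the same pattern, with 1562, 23491 and 582 CPM, while the other 3 treated libraries had 341 to 427, 47572 to 59690 and 85.4 to 122 CPM. The library shared by KO embryos 2 and 3 had 427, 47572 and 85.4 CPM for these sums. The control of KO embryo 2 had 58.6, 86321 and 90.5 CPM, and that of KO embryo 3 had 2471, 16572 and 412 CPM. The embryo of the shared library was not settled by a test. Of markers of other cells, 2 of 5 endothelial genes tested were called higher with doxorubicin, with sums of 17.8 to 46.0 CPM in control and 37.1 to 92.2 CPM in treated libraries, 2 of 6 neural and glial genes were called lower, and 0 of 4 muscle genes were called. Of the other lists, 1 of 10 fibroblast genes was called lower, 1 of 7 macrophage genes higher and 1 lower, and 0 of 12 interferon-stimulated genes were called. The sum of the latter was nevertheless higher with doxorubicin in the WT embryo and KO embryos 1 and 2, from the 57.9 to 77.0 CPM of their controls to 341 to 427 CPM, and lower in Het. With the embryo as a block, 2 of these genes were called higher (Irf7 and Bst2) and 1 lower (Ifit2), and 0 higher and 1 lower if the shared library is given to KO embryo 3. Other marker counts that moved under the block were those of 4 endothelial genes and 1 fibroblast gene called higher, and of 2 fibroblast genes and 1 muscle gene called lower. With the shared library given to KO embryo 3, the block called 4 endothelial and 0 fibroblast genes higher, and 1 fibroblast and 0 muscle genes lower. Over all genes tested, 21.9% were called higher and 20.2% lower without the block, and 30.6% and 28.8% with it. The part of these marker levels in the results below was not tested unless a value is given without the libraries concerned. The fibroblast markers were present in every library, and in bulk RNA a smaller number of cells of a type and less RNA per cell cannot be told apart.

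Doxorubicin changed 5 of the 10 genes at an FDR under 0.01 (edgeR quasi-likelihood test with genotype as a covariate, adjusted over all genes tested). Bcl2l11 and Bok rose, and Bcl2l1, Bak1 and Mcl1 fell. Much of the transcriptome moved as well, since 42.1% of the genes tested passed the same threshold, 21.9% as higher and 20.2% as lower. A count of 2 higher and 3 lower among 10 is therefore near the share over all genes. At an unadjusted p under 0.05 there were 8 of the 10 genes, against 61.5% of all genes, and DESeq2 called 7, against 52.2%. With the embryo as a block, which compares treatments within an embryo, 8 of 10 genes passed, Bcl2, Bad and Bid being added. That count stands against 59.4% of all genes under the block, 30.6% higher and 28.8% lower. The gain depends on the embryo of the shared library, because the same block with that library given to KO embryo 3 called 4 of the 10 genes and 40.5% of all genes, with Bcl2, Bad, Bid and Mcl1 not passing. Set against the control of KO embryo 3, the ratio of that library changed its sign for Bik alone among the 10 genes. Without the Het embryo and KO embryo 3, which was tried once the values were known, 8 of the 9 genes that passed the filter were called, Bcl2, Bad and Bid among them, against 67.8% of all genes tested there. In the controls of those 2 embryos the levels of all 5 BH3-only genes were higher, and those of Bcl2l1, Bak1 and Bok lower, than in the other 3 controls. Without them the log2 change was 1.96 for Bcl2l11, 0.74 for Bok, -1.29 for Bcl2l1 and -1.22 for Bak1, each at an FDR under 0.01. The median change of the 10 genes was 0.27 on the log2 scale, and that of all genes tested was -0.018. Values of CPM are shares of a library, so a loss of RNA over the whole cell would not be seen in them.

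**Figure D1:**
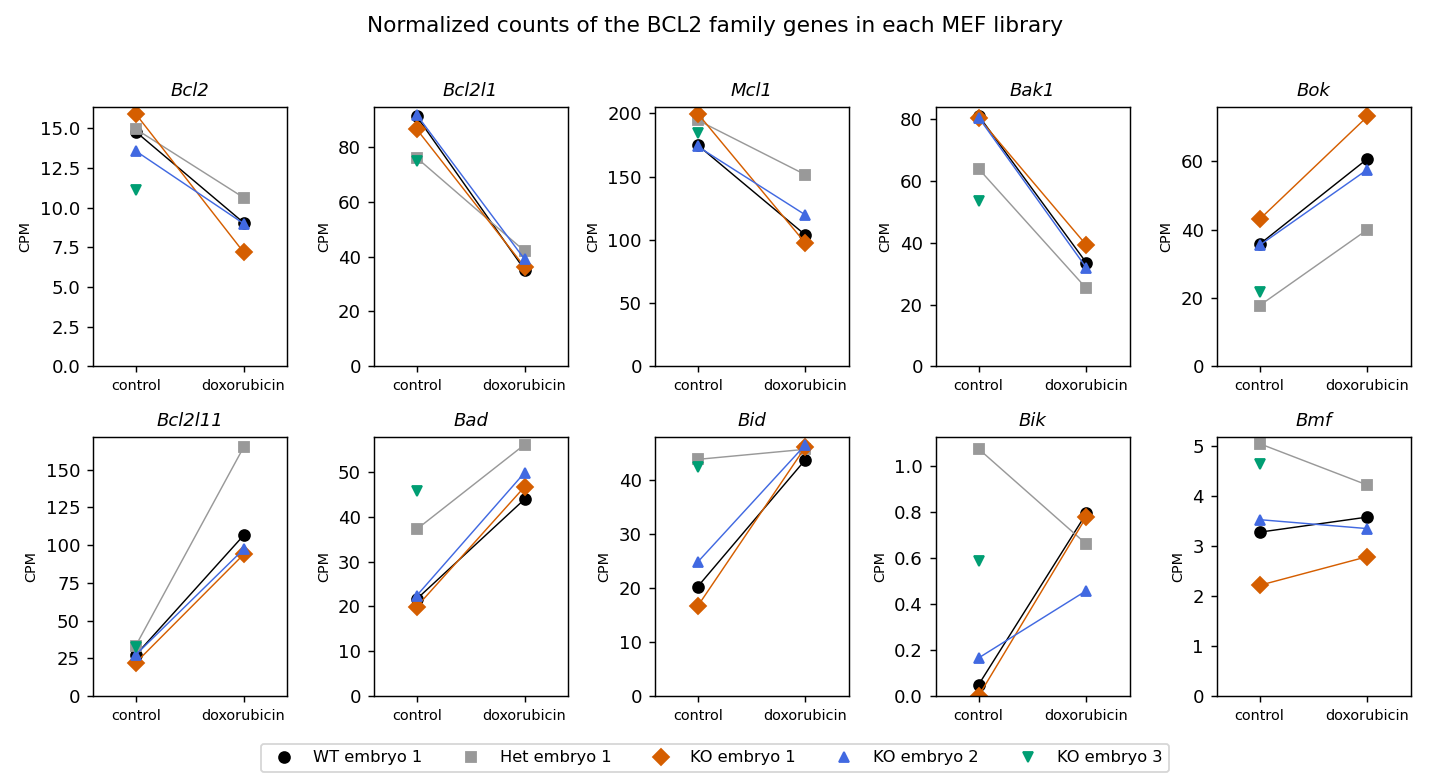
Normalized counts (CPM, linear axes from 0) of the 10 BCL2 family genes in 5 control and 4 doxorubicin libraries, with lines joining the libraries of an embryo. For Bcl2l11 every treated library lies above every control, and for Bcl2, Bcl2l1, Mcl1 and Bak1 every treated library lies below every control.

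To show the DNA in front of genes that moved in opposite directions, the 250 bases before the transcription start are printed for Bcl2l11 and Bok, which rose, and for Mcl1, which fell. They were taken from RefSeq (GRCm38.p6), are given 5′ to 3′ on the strand of the gene, and hold no annotated exon. Windows of the same kind were found for 9 of the 10 genes, Bik being the exception, and those of Bcl2l1 and Bak1 lay within annotated exons and are not printed. Capitals mark the GC box (GGGCGG), the CCAAT box (CCAAT) and the FOXO site (GTAAACA), searched on both strands. The Bcl2l11 window covers chr2:128125788-128126037 on the plus strand, that of Bok chr1:93685325-93685574 on the plus strand, and that of Mcl1 chr3:95658471-95658720 on the plus strand.
Bcl2l11: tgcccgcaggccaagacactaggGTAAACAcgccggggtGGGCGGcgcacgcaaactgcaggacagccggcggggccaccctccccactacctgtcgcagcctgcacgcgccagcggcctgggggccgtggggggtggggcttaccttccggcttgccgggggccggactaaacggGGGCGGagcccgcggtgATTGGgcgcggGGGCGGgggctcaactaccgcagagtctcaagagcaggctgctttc
Bok: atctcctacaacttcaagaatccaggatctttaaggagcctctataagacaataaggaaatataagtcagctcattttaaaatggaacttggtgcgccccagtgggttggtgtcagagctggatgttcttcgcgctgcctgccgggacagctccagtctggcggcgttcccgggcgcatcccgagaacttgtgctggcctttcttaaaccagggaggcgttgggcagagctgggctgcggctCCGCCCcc
Mcl1: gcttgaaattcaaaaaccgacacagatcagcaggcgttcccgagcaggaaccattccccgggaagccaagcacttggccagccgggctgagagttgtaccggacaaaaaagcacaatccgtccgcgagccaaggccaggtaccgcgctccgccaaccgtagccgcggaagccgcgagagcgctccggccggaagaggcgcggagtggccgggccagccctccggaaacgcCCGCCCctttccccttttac

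The Bcl2l11 window had a GC content of 72.0% and held 3 GC boxes, 1 CCAAT box and 1 FOXO site. Of 32851 windows of this length in front of mouse transcription starts, 32.7% hold a GC box, 33.8% a CCAAT box and 3.17% a FOXO site. The Bok and Mcl1 windows held 1 GC box each and neither of the other motifs, at a GC content of 55.2% for Bok and 64.4% for Mcl1, against a median of 52.4% over all windows. Of the windows not printed, that of Bcl2, which fell, had a GC content of 74.8% and 7 GC boxes, and that of Bid had 3. CCAAT boxes were also found for Bad (1) and Bmf (3). In the Bad window 230 of the 250 bases lay in annotated exons. A TATA box (TATAAA), which 12.4% of windows hold, was found in 0 of the 9 windows, and the decamer of the p53 response element, which 7.13% hold, likewise in 0. These are matches of letters in a short window and no measure of binding.

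Among the guardians, Bcl2l1 on chromosome 2 (152780668 to 152831728, minus strand) showed the deepest fall. Its level was 91.1 CPM in the WT control, 76.0 in the Het control and 86.5, 91.7 and 74.9 in KO embryos 1, 2 and 3. With doxorubicin it was 35.3, 42.1, 36.3 and 39.1 CPM in the libraries of WT, Het, KO embryo 1 and KO embryo 2. The groups did not overlap, and the highest treated library, that of the Het embryo, stayed well under the lowest control, that of KO embryo 3. The mean went from 84.1 ± 8.12 CPM (SD, n = 5) to 38.2 ± 3.05 CPM (SD, n = 4), a log2 change of -1.14 (standard error 0.138, edgeR FDR 0.000221). Bcl2l1 was lower in 4 of 4 embryos and passed the threshold under each of the 16 alternatives, the highest FDR being 0.00973 with the KO libraries alone.

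Mcl1 on chromosome 3 (95658788 to 95663176, plus strand) encodes a guardian whose protein has a short life. It had 175 CPM in the WT control, 195 in the Het control and 199.9, 174 and 184 CPM in the 3 KO controls. After doxorubicin, levels of 104, 151, 97.3 and 119.7 CPM remained in the libraries of WT, Het, KO embryo 1 and KO embryo 2. All treated libraries were below all controls, the Het library being closest. The mean fell from 185 ± 11.6 CPM (SD, n = 5) to 118 ± 24.2 CPM (SD, n = 4), with a log2 change of -0.68 (standard error 0.149, edgeR FDR 0.00479). This call was lost when the WT embryo (-0.65), KO embryo 1 (-0.57) or KO embryo 2 (-0.74) was left out, and the direction stayed the same in each. It was also lost under the embryo block with the shared library given to KO embryo 3 (-0.69, FDR 0.0127).

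Bcl2 on chromosome 1 (106538178 to 106714274, minus strand), the founding guardian, was the least abundant of the 3. Control levels were 14.8 CPM in WT, 14.9 in Het and, by number of the KO embryos, 15.9, 13.6 and 11.1, and treated levels were 9.05, 10.6, 7.19 and 8.99 in the libraries of WT, Het, KO embryo 1 and KO embryo 2. Treated libraries lay below all controls, although only narrowly below KO embryo 3. Its log2 change of -0.68 (standard error 0.183) did not pass the threshold, with an edgeR FDR of 0.0127. Under the embryo block the change was -0.73 (standard error 0.157) and the FDR 0.00370, but with the shared library given to KO embryo 3 it was -0.66 (standard error 0.221) and the FDR 0.0329. The summed CPM of the 3 guardians lay between 270.2 and 302 in control and between 141 and 204 with doxorubicin.

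The effectors Bak1 and Bok moved in opposite directions. Bak1, on chromosome 17 (27019810 to 27029009, minus strand), had 81.2 CPM in the WT control, 64.0 in the Het control and 80.5, 80.6 and 53.6 in the KO controls. With doxorubicin its level was 33.5, 25.2, 39.3 and 31.9 CPM in the libraries of WT, Het, KO embryo 1 and KO embryo 2. The groups were separate, and within control the Het embryo and KO embryo 3 were the lowest. The mean of 72.0 ± 12.6 CPM (SD, n = 5) fell to 32.5 ± 5.77 CPM (SD, n = 4), a log2 change of -1.14 (standard error 0.173, edgeR FDR 0.000688). Bak1 was lower in 4 of 4 embryos, yet the FDR was 0.0128 without KO embryo 2, at a change of -1.11. In the GENCODE annotation 25.5% of the exonic bases of Bak1 are shared with Ggnbp1 on the opposite strand. The strand setting of the counting is not given in the sources used here, so reads of the pair may be mixed or dropped. Ggnbp1 had a log2 change of 0.84 (standard error 0.366, edgeR FDR 0.0796).

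Bok, on chromosome 1 (93685660 to 93695764, plus strand), makes an effector that does not need activation by BH3-only proteins. The control levels were 35.8 CPM in WT, 17.8 in Het and, by number of the KO embryos, 43.1, 35.5 and 21.7. In treated MEFs, Bok had 60.8, 40.0, 73.2 and 57.6 CPM in the libraries of WT, Het, KO embryo 1 and KO embryo 2. The groups overlapped, because the Het library with doxorubicin was below the control of KO embryo 1. Within embryos Bok was higher in 4 of 4, by 0.70 to 1.16 on the log2 scale. Set against the control of KO embryo 3, the shared library was higher by 1.41. The overall change was 0.97 (standard error 0.210, edgeR FDR 0.00433), from 30.8 ± 10.6 CPM (SD, n = 5) to 57.9 ± 13.7 CPM (SD, n = 4). The call was lost without the WT embryo (1.03), the Het embryo (0.91), KO embryo 1 (0.98) or KO embryo 2 (1.03).

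Of the BH3-only genes, Bcl2l11 on chromosome 2 (128126038 to 128162547, plus strand) had the largest change among the genes called. Its product BIM binds every guardian and can activate the effectors directly. Controls had 27.1 CPM in WT, 33.3 in Het and, by number of the KO embryos, 22.0, 27.2 and 32.6. After treatment it had 106, 165, 93.8 and 97.2 CPM in the libraries of WT, Het, KO embryo 1 and KO embryo 2. Every treated library was far above every control, and the Het embryo was the highest under both conditions. The mean rose from 28.4 ± 4.63 CPM (SD, n = 5) to 116 ± 33.3 CPM (SD, n = 4), which is 3.89-fold or 1.96 on the log2 scale (standard error 0.161, edgeR FDR 4.18e-05). Bcl2l11 was higher in 4 of 4 embryos, by 1.83 to 2.31 on the log2 scale, and passed the threshold under all 16 alternatives. Set against the control of KO embryo 3, the shared library was higher by 1.57.

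Bad, on chromosome 19 (6941861 to 6951899, plus strand), encodes a BH3-only protein held inactive by phosphorylation. It had 21.6 CPM in the WT control, 37.2 in the Het control and 19.9, 22.4 and 45.7 in the KO controls, against 43.9, 56.1, 46.7 and 49.8 CPM in treated WT, Het, KO embryo 1 and KO embryo 2. The control of KO embryo 3 lay within the range of the treated libraries, so that the groups overlapped. Within embryos Bad was higher in 4 of 4, by 0.59 in Het and 1.02 to 1.22 in the others. Set against the control of KO embryo 3, the shared library was higher by only 0.12. Its log2 change of 0.76 (standard error 0.252, edgeR FDR 0.0310) did not pass the threshold, whereas under the embryo block it was 1.00 (standard error 0.135, FDR 0.000342). With the shared library given to KO embryo 3, the block gave 0.74 (standard error 0.216, FDR 0.0189), which did not pass. Gpr137 on the opposite strand shares 20.5% of the exonic bases of Bad and had a log2 change of -0.035 (standard error 0.218, edgeR FDR 0.903).

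Bid, on chromosome 6 (120891930 to 120916853, minus strand), links death receptors to the mitochondrion once caspase-8 has cleaved its product. Its control levels were 20.2 CPM in WT, 43.8 in Het and, by number of the KO embryos, 16.6, 24.8 and 42.4. With doxorubicin the 4 libraries were close to each other, at 43.7, 45.6, 46.1 and 46.5 CPM. Bid in the Het embryo and in KO embryo 3 was thus already near the treated level without treatment. The change within embryos was 0.060 in Het and 0.91 to 1.47 in the other 3. Set against the control of KO embryo 3, the shared library was higher by only 0.13. The overall log2 change of 0.66 (standard error 0.280, edgeR FDR 0.0725) did not pass. Under the embryo block it was 0.88 (standard error 0.217, FDR 0.00708), and 0.69 (standard error 0.269, FDR 0.0576) if the shared library is given to KO embryo 3. Bcl2l13, another family gene, shares 17.7% of the exonic bases of Bid on the opposite strand and rose by 0.61 (standard error 0.153, edgeR FDR 0.00899).

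Bik, on chromosome 15 (83526862 to 83544634, plus strand), was near the limit of detection. It had 1 count in the WT control, 26 in the Het control and 0, 3 and 13 in the KO controls, and 16, 13, 14 and 10 counts in treated WT, Het, KO embryo 1 and KO embryo 2. The control of KO embryo 1, at 0 counts, allows up to 0.151 CPM, and the treated library of the same embryo was at 5.17-fold this floor of 3 counts per library. With the counting error of both libraries, the 95% exact binomial interval of the ratio of treated to control begins at 3.68. The treated level was 16.3-fold that of control in WT (95% exact binomial interval 2.53 to 682), 2.77-fold in KO embryo 2 (0.714 to 15.7) and 0.614-fold in Het (0.290 to 1.24). The log2 change over all libraries was 1.10 (standard error 0.860, edgeR FDR 0.306), with overlapping groups. Bmf, on chromosome 2 (118528757 to 118549687, minus strand), a BH3-only gene linked to the cytoskeleton, had 2.21 to 5.05 CPM in control and 2.79 to 4.22 CPM with doxorubicin. Its log2 change of -0.12 (standard error 0.274, edgeR FDR 0.720) went in either direction within embryos, 2 higher and 2 lower. In summed CPM the 5 BH3-only genes went from 60.7 to 126 in control to 190.1 to 272 with doxorubicin, ranges that did not overlap. Of these genes only Bcl2l11 had separate groups by itself, with at most 33.3 CPM in control and at least 93.8 CPM with doxorubicin. The groups of Bad, Bid, Bik and Bmf each overlapped, so the sum does not show a rise of the whole class. Over the 10 genes, the control and treated libraries did not overlap for 5, as was the case for 47.4% of the genes tested.

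**Figure D2:**
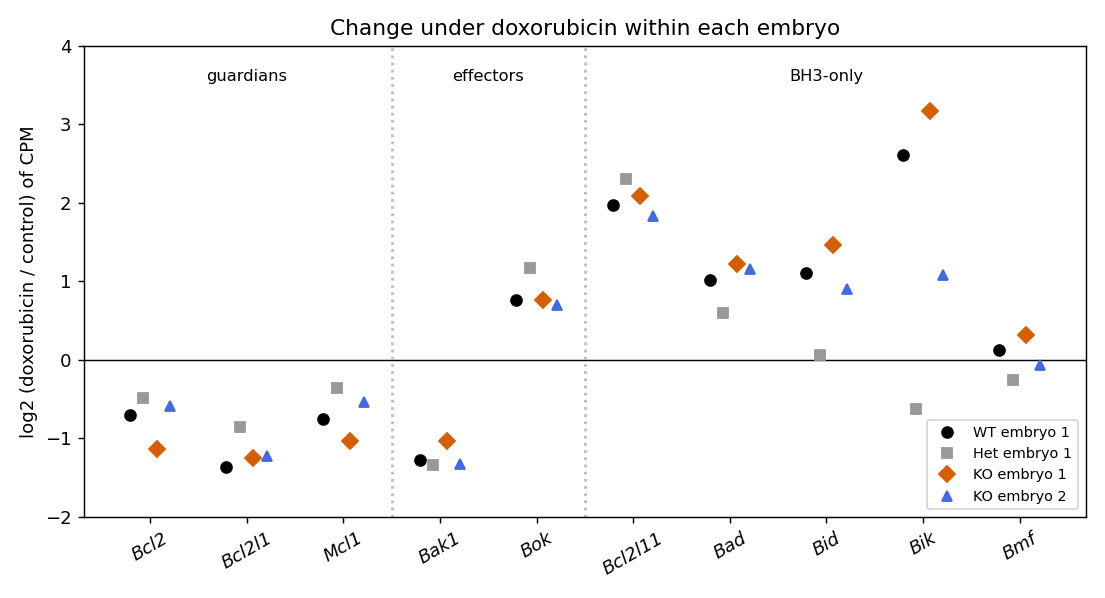
Change under doxorubicin within an embryo, as log2 of the ratio of CPM with a prior count of 2, for the 10 genes grouped as guardians, effectors and BH3-only and for 4 embryos with both libraries. All 4 points lie below 0 for Bcl2, Bcl2l1, Mcl1 and Bak1 and above 0 for Bok, Bcl2l11, Bad and Bid, with Bid of the Het embryo at 0.060, while Bik of the Het embryo lies at -0.63.

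Ratios of the counts of a pair of genes within a library do not depend on scaling, and 4 such pairs were computed after the values had been seen. Bcl2l11 per Bcl2l1, Bcl2l11 per Mcl1 and Bok per Bak1 each set a gene called higher over a gene called lower. Their rise follows from this choice and is no further test. Bcl2l11 had 0.297 counts per count of Bcl2l1 in the WT control, 0.438 in the Het control and 0.254, 0.297 and 0.436 in the KO controls. In treated MEFs there were 3.02, 3.92, 2.58 and 2.49 in the libraries of WT, Het, KO embryo 1 and KO embryo 2, so that the larger count passed from the guardian to the BH3-only gene. Within embryos the ratio rose 8.38-fold to 10.2-fold, with the lower end in KO embryo 2. If the shared library belongs to KO embryo 3, whose control ratio was higher (0.436 against 0.297), its rise is smaller than this range. Against Mcl1, Bcl2l11 went from 0.110 to 0.177 counts per count in control to 0.813 to 1.09 with doxorubicin. Bok had 0.278 to 0.535 counts per count of Bak1 in control and 1.59 to 1.86 with doxorubicin, a rise of 3.48-fold to 5.70-fold within embryos. The 2 guardians Mcl1 and Bcl2l1 fell unequally, since Mcl1 had 1.89 to 2.56 counts per count of Bcl2l1 in control and 2.68 to 3.60 with doxorubicin. These ratios compare counts and not molecules, because the genes differ in length.

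**Figure D3:**
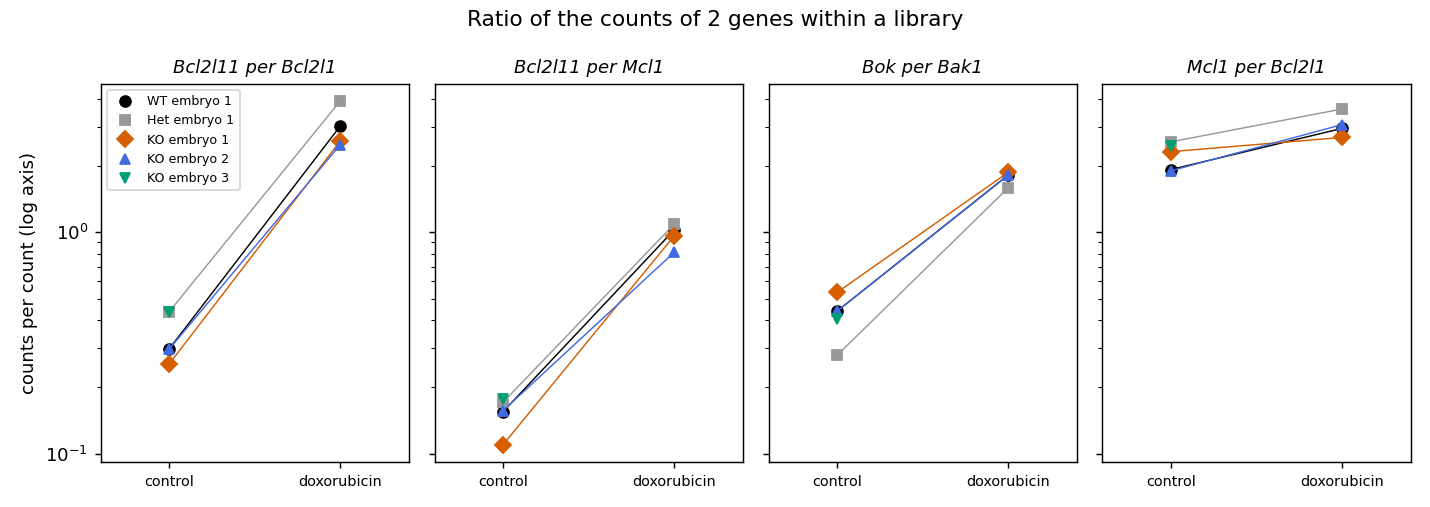
Counts of a gene per count of another within a library, on a log axis, for 4 pairs and 9 libraries, with lines joining the libraries of an embryo. The pairs were chosen after the values were seen. In each of the 4 pairs every treated library lies above every control, and Bcl2l11 per Bcl2l1 goes from 0.254 to 0.438 in control to 2.49 to 3.92 with doxorubicin.

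To compare levels between genes, CPM were divided by the length of all annotated exons in kb (GENCODE vM21). In control Mcl1 was the most abundant at 54.3 ± 3.40 CPM per kb (SD, n = 5), followed by Bak1 at 29.9 ± 5.23 and Bcl2l1 at 18.3 ± 1.77. Then came Bok at 16.7 ± 5.76, Bad at 11.5 ± 4.49, Bid at 8.32 ± 3.58 and Bcl2l11 at 3.54 ± 0.577. The lowest were Bcl2 at 1.54 ± 0.201, Bmf at 0.712 ± 0.215 and Bik at 0.236 ± 0.286. Neighbours in this order whose libraries overlapped were Bcl2l1 and Bok, Bok and Bad, Bad and Bid, and Bmf and Bik.

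With doxorubicin Mcl1 at 34.5 ± 7.07 CPM per kb (SD, n = 4) and Bok at 31.5 ± 7.43 led and overlapped. Bad followed at 19.2 ± 2.05, Bcl2l11 at 14.4 ± 4.15, Bak1 at 13.5 ± 2.40 and Bid at 12.8 ± 0.345, and each of these overlapped with the next, as did Bok and Bad. Bcl2l1 stood at 8.33 ± 0.666, below all libraries of Bid, and Bcl2 (0.979 ± 0.153), Bmf (0.663 ± 0.113) and Bik (0.424 ± 0.0978) remained the lowest, with only Bcl2 and Bmf overlapping. Bcl2l11 thus passed from rank 7 to rank 4, and Bcl2l1 from rank 3 to rank 7.

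**Figure D4:**
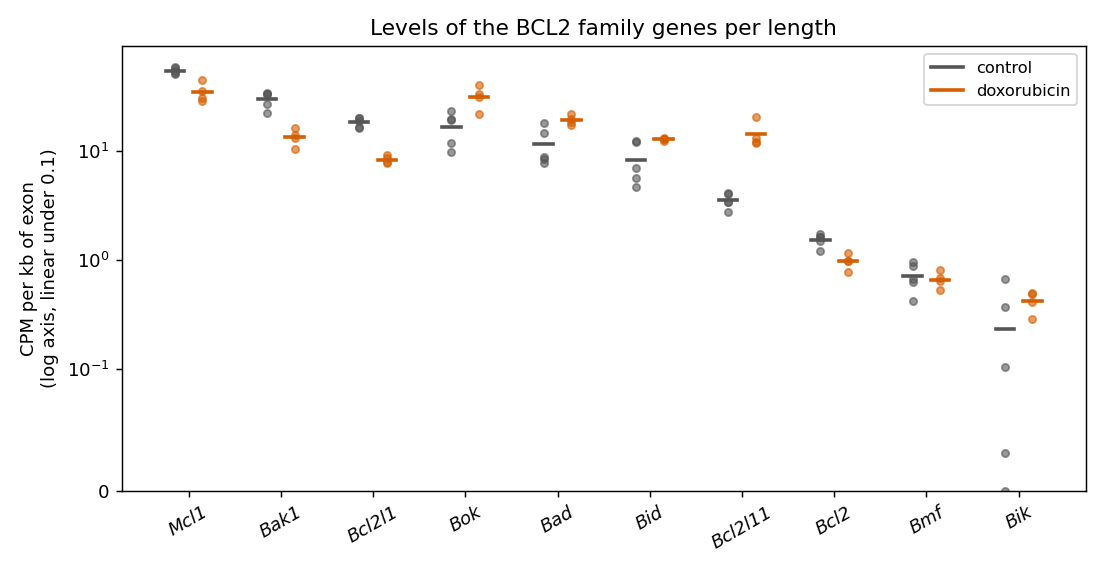
CPM per kb of exon of the 10 genes in 5 control (grey) and 4 doxorubicin (orange) libraries, on an axis that is logarithmic above 0.1 and linear below, with points for libraries and bars for means. Mcl1 leads in both groups, at 54.3 and 34.5 CPM per kb, and Bcl2l11 moves from 3.54 to 14.4 CPM per kb.

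Whether these levels followed the Sall2 genotype was tested with a slope over a genotype value, set at 1 in WT, 0.5 in Het, 0 in KO, across all 9 libraries with treatment as a covariate. This fit has no term for the embryo, so libraries of the same embryo count as separate, and its standard errors may be too small. Of the 10 genes 0 passed an FDR under 0.01 in edgeR, as did 0% of all genes, and 0 of the 10 had an unadjusted p under 0.05, against 41 of all genes. The smallest edgeR FDR over all genes was 0.726, so Sall2 itself did not pass either. The slope therefore cannot show that the 10 genes do not follow the genotype. DESeq2 called 0 of the 10 and 2 of all genes. The smallest edgeR p among the 10 was that of Bcl2 at 0.446, with a slope of 0.18 (standard error 0.228), and the slope of Bcl2l11 was also 0.18 (standard error 0.270). Slopes ranged from -0.18 for Bad to 0.29 for Bik, whose standard error was 1.28. For the interaction of genotype value and doxorubicin, edgeR called 0 of the 10 and 0% of all genes, and 0 of the 10 and 8 of all genes had an unadjusted p under 0.05. DESeq2 called 0 in both. Bak1 had the smallest p at 0.580, with an interaction of -0.28 (standard error 0.487), and Bcl2l11 had 0.25 (standard error 0.587). This fit also has no term for the embryo. In it the standard errors of the interaction were 0.368 for Bcl2l1 and larger for the other 9 genes. A difference between genotypes of the size of the Mcl1 change was therefore not detectable in this fit. With the embryo as a block, the interaction of Bak1 was -0.11, and -0.43 with the shared library given to KO embryo 3.

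The relatives set apart differed in their response, and changes are log2 values here and in the lists that follow. Pmaip1, the gene of the BH3-only protein NOXA, rose from 117 ± 54.3 CPM (SD, n = 5) to 528 ± 72.3 CPM (SD, n = 4), a log2 change of 2.21 (standard error 0.316, edgeR FDR 0.000509). Bax (-0.18, FDR 0.537) and Bbc3 (-0.40, FDR 0.262), the genes of an effector and of PUMA, did not pass. Of 12 further family genes 9 were tested, 2 were called higher and 0 lower, and 7 did not pass, against 21.9% higher and 20.2% lower over all genes tested. Under the embryo block 3 were called higher and 0 lower, against 30.6% and 28.8% of all genes. The added gene was Bcl2l15 (3.46, edgeR FDR 0.000261), at only 0.349 ± 0.394 CPM (SD, n = 5) in control. With the shared library given to KO embryo 3, the block called 1 higher and 0 lower, against 40.5% of all genes in either direction. Hrk, a BH3-only gene, rose from 0.0519 ± 0.0678 CPM (SD, n = 5), which is under the floor, to 0.798 ± 0.182 CPM (SD, n = 4). Its fitted change of 3.78 (standard error 0.623, FDR 0.00108) rests on few counts in control, and Bcl2l13 rose as given above. Bcl2l2, the gene of the guardian BCL-W, had a change of -0.15 (standard error 0.172, FDR 0.483). The near-identical copies Bcl2a1a, Bcl2a1b and Bcl2a1d cannot be told apart with certainty in such counts.

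Downstream of the family, 1 of the 17 genes reported here of the mitochondrial pathway was called higher and 5 lower, with a median of -0.25 over these genes. Under the embryo block 1 was called higher and 6 lower, Birc5 (-0.53, edgeR FDR 0.00298) being added. With the shared library given to KO embryo 3, the block called 1 higher and 5 lower. Over all genes tested, the shares were 21.9% higher and 20.2% lower, and 30.6% and 28.8% under the embryo block. Cycs, the gene of cytochrome c, rose by 1.31 (standard error 0.233, FDR 0.00158). Its level was low, at 3.71 ± 0.927 CPM (SD, n = 5) in control and 9.08 ± 0.189 CPM (SD, n = 4) with doxorubicin. Those called lower without the block were Casp2 (-1.78), the caspase inhibitors Xiap (-1.01) and Birc3 (-1.33), Aifm1 (-1.38) and the membrane channel Vdac3 (-0.87). Apaf1 (-0.18) and Casp9 (-0.25), which form the apoptosome with cytochrome c, did not pass. Of the death receptor pathway, 0 of 8 genes tested were called higher and 2 lower, Casp8 (-0.78, FDR 0.00142), whose product cleaves BID, and Ripk1 (-0.78, FDR 0.00604). Under the embryo block 1 was called higher and 4 lower, the former being the receptor gene Fas (1.33, FDR 0.00438), which had 0.83 (FDR 0.153) without the block and was higher in 4 of 4 embryos, by 0.10 to 2.05. With the shared library given to KO embryo 3, the block called 0 higher and 1 lower. In a list of 10 genes made of Trp53 and genes known to answer to p53 or DNA damage, 0 were called higher and 1 lower, Phlda3 (-1.43, FDR 0.000272), and Cdkn1a had -0.64 (FDR 0.0144). Under the block 4 were called lower, Phlda3, Cdkn1a (-0.70, FDR 0.000878), Zmat3 (-0.87, FDR 0.000617) and Plk2 (-0.64, FDR 0.00422), but 1 with the shared library given to KO embryo 3.

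Among 13 genes whose products act on the family, 5 rose and 4 fell, with a median of -0.10, against 21.9% higher and 20.2% lower over all genes tested. Foxo3, whose product can switch on Bcl2l11, rose by 0.80 (standard error 0.201, FDR 0.00905), and E2f1 rose by 0.71 (standard error 0.159, FDR 0.00505). Genes whose products act for or against the breakdown of MCL1 went both ways. Trim17 (4.92, standard error 0.524) and Fbxw7 (0.75, standard error 0.131) rose, whereas the ubiquitin ligase gene Huwe1 (-1.11, standard error 0.207) and the deubiquitinase gene Usp9x (-1.41, standard error 0.280) fell. Bag1, a partner of BCL2, rose by 0.96 (standard error 0.150), while Myc (-1.18, standard error 0.185) and Atf4 (-2.29, standard error 0.241) fell. Trim17 was at 0.686 ± 0.477 CPM (SD, n = 5) in control, and at 29.1 ± 29.5 CPM (SD, n = 4) with doxorubicin, so its fold rests on few counts in control and on treated libraries that differ widely. Foxo1 (0.42), Ddit3 (-0.44), Jun (-0.32) and Bag3 (-0.10) did not pass.

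The genes with the pattern most like that of Bcl2l11 were Caprin2, Arid5a, Lrrc56, 4930570G19Rik and Abcc2, with a Pearson r between 0.995 and 0.999 of log2 CPM over the 9 libraries. For Bak1, the called gene with the largest decrease, they were 0610009O20Rik, Zfp575, Ipo8, Slc25a12 and Ammecr1l, at 0.993 to 0.995. The 9 libraries share the split into treated and control, which enters every such correlation.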

How the data were processed

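RNA-Seq counts of MEFs were analysed in 9 of 10 libraries. The authors merged 4 FASTQ files per library, aligned the reads to mm10 with HISAT2, sorted them with Picard, and used HTSeq (union mode, iGenomes annotation) to obtain counts, and these whole-number counts were deposited without normalization. The submitters' processing notes name HISAT2 2.1.0, and the methods name another version. Kits were Ribo-Zero Gold and TruSeq Stranded mRNA, and the strand setting of HTSeq is not given in the sources used here. RUVg normalization, named in the methods, came after this table.

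Libraries were grouped by the genotype, embryo number and treatment in the labels. In R 4.3.3, counts were filtered with filterByExpr, scaled with TMM and tested by edgeR 4.0.16 (quasi-likelihood, two-sided, genotype as covariate), with Benjamini-Hochberg adjustment over all genes at an FDR under 0.01, the value of the study's results. Standard errors were derived from the F statistic. Log2 CPM used a prior count of 2. The alternatives were DESeq2 1.42.0, RLE scaling, other filters, libraries without Rn45s, an FDR of 0.05, each embryo left out, KO libraries alone, 1 treatment alone for the slope, no covariate, and the embryo as a block, also with the duplicated column assigned to KO embryo 3. Library size alone, and leaving out the Het embryo and KO embryo 3 together, were chosen after the data were seen. Fits were also run on simulated counts with no embryo effect and less spread than these data, which checks the code and not the error rates here.

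The pairing within an embryo comes from the numbers in the labels. When KO embryo 1 was compared with KO embryo 2, their control and treated differences had a Pearson correlation of 0.385 across 14883 genes, which are not independent replicates, and 0.233 when KO embryo 3 took the place of embryo 2. Embryos are separate, but nothing tells whether cultures were repeated. The 10 genes and all lists were chosen with earlier results of these data known. A gene of the mitochondrial pathway list is not reported here and was left out of its counts and median. Named are the 10 genes, list genes beside a count of their list, and, for the called genes with the largest increase and decrease, 5 genes with the highest correlation. Coordinates are from GENCODE vM21 (GRCm38). Promoter windows are those of the RefSeq start within 100 bases of the most GENCODE starts.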

Additional observations from a re-analysis of the deposited data

Results flagged for a closer look

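The response of Bik in the Het embryo went against that of both KO embryos. Its log2 ratio of doxorubicin to control was -0.63 in Het, from 26 to 13 counts, and 3.17 and 1.08 in KO embryos 1 and 2, from 0 to 14 and from 3 to 10 counts. If the library shared by KO embryos 2 and 3 is set against the control of KO embryo 3, the ratio there is -0.30, from 13 to 10 counts, and the KO embryos no longer go the same way. The difference between genotypes rests on 1 Het embryo and was not tested by itself, and the Het control was among the libraries with high interferon and macrophage sums. Of 20 groups searched for a library far from the others in the level of a gene, 0 held one.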

How the results depend on the processing

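Of the 10 genes, 5 were called in the fit reported, and without single replicates 2 to 8 were called, with 2809 to 8971 genes in all. Leaving out KO embryo 2 gave the lowest and leaving out KO embryo 3 the highest of both counts. Leaving out the WT embryo gave 3 of the 10 and 4156 genes, and leaving out KO embryo 1 gave 3 and 3344. With KO libraries only, 2 of the 10 and 1911 genes passed. The embryo as a replicate block, a pairing within embryos, gave 8 of the 10 with no call lost, and without both the Het embryo and KO embryo 3, which was chosen after the data were seen, there were 8 and 9922 genes. Bcl2, Bad and Bid passed in both of these settings and without KO embryo 3 alone, and Bcl2 and Bad also with DESeq2. The log2 change of Bmf turned positive in 3 settings, at 0.013 without KO embryo 3, 0.021 under the block and 0.11 without both embryos, and ranged from -0.19 to 0.013 over single replicates left out. The cause was not tested. Bcl2l1 and Bcl2l11 kept direction and call under all 16 alternatives, Bak1 lost its call under 2, and Bok and Mcl1 under 6 each. With the library shared by KO embryos 2 and 3 given to embryo 3, the block called 4 of the 10 and 6025 genes, without Bcl2, Bad, Bid or Mcl1. DESeq2 called 2 genes for the slope over genotype, neither of them among the 10, and no genotype call of the 10 genes appeared under any alternative run. Scaling choices moved the median change of all genes by less than 0.1. With Bik under 30 counts in every library, depth limits its fold, and with 1 WT embryo the number of embryos limits the genotype tests.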
